A study of Mus musculus with 3 samples.

Results

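The neutrophils described here are 56 of the 26757 aortic cells that were kept from 3 single-cell RNA-seq libraries of mouse aorta. A cell was counted as a neutrophil when S100a8 and S100a9 together made up at least 3% of its unique molecular identifiers (UMIs, each marking 1 captured transcript) and the smooth muscle transcripts Acta2 and Tagln together stayed under 1%. Kept cells had at least 200 detected genes and under 20% mitochondrial UMIs. By this rule the APOE2 library held 48 neutrophils and the APOE3 and APOE4 libraries 4 each. S100a8 and S100a9 chose the cells, so their levels below describe the choice and are not a result.

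The libraries came from male mice in which human APOE2, APOE3 or APOE4 stands in place of the mouse gene at the Apoe locus, on a C57BL/6J background. All groups ate a Western diet with 42% fat and 0.2% cholesterol for 16 weeks, beginning at 12 weeks of age. After perfusion with saline the whole aorta, from the arch to the iliac bifurcation, was digested with enzymes, and the cells were pooled by genotype into 1 droplet library (10x Chromium) each, from 6 animals for APOE2, 5 for APOE3, and 7 in the case of APOE4. The barcodes do not tell the mice apart, so genotype, pool and library preparation cannot be told apart, no difference between genotypes could be tested, and cells were not treated as replicates. The 95% intervals below cover counting error only. Where 3 values stand together without further labels, they follow the order APOE2, APOE3, APOE4.

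Neutrophils are short-lived phagocytes that are made in the bone marrow, circulate in blood and enter inflamed tissue along chemokine gradients. S100a8 and S100a9 encode the subunits of calprotectin, a calcium- and zinc-binding protein that fills their cytosol. Their granule proteins are made in a fixed order during maturation in the marrow, azurophil proteins first, specific granule proteins next and gelatinase granule proteins last, after which the genes are largely silent in mature cells. In atherosclerotic arteries neutrophils are known as a rare population that releases cytokines, proteases and extracellular traps.

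Neutrophils made up 0.408% of the kept cells in the APOE2 library (48 of 11772 cells, exact Clopper-Pearson 95% interval 0.301 to 0.540%). The share was 0.0594% in APOE3 (4 of 6737, 0.0162 to 0.152%) and 0.0485% in APOE4 (4 of 8248, 0.0132 to 0.124%). The APOE2 share was the highest, and its interval did not overlap those of the other libraries, whereas the APOE3 and APOE4 intervals overlapped almost entirely. On the log2 scale the share in APOE2 was 2.78 above APOE3 (exact conditional binomial 95% interval 1.33 to 4.71) and 3.07 above APOE4 (1.62 to 5.00), or 6.87 and 8.41 times. The log2 ratio of APOE4 to APOE3 was -0.29 (-2.72 to 2.13), an interval that spans differences in either direction.

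The order of the libraries did not rest on the S100 genes alone. When cells were instead chosen for a UMI of at least 2 of Retnlg, Csf3r and Cxcr2, with the same limit on Acta2 and Tagln, the count was 51 cells in APOE2, 8 in APOE3, and only 7 in APOE4. These are 0.433%, 0.119% and 0.0849% of the kept cells, and the log2 ratios of APOE2 to APOE3 and APOE4 were 1.87 (0.78 to 3.15) and 2.35 (1.21 to 3.74). The rules shared 51 cells, which are 91.1% of the cells chosen by S100 share and 77.3% of the 66 cells chosen by the other markers. The fold between APOE2 and APOE3 was thus 3.65 times by these markers and 6.87 times by S100 share. A minimum S100 share of 10% instead of 3% left 37, 1 and 2 cells, and a minimum of 1% gave 53, 7 and 6 cells.

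**Figure D1:**
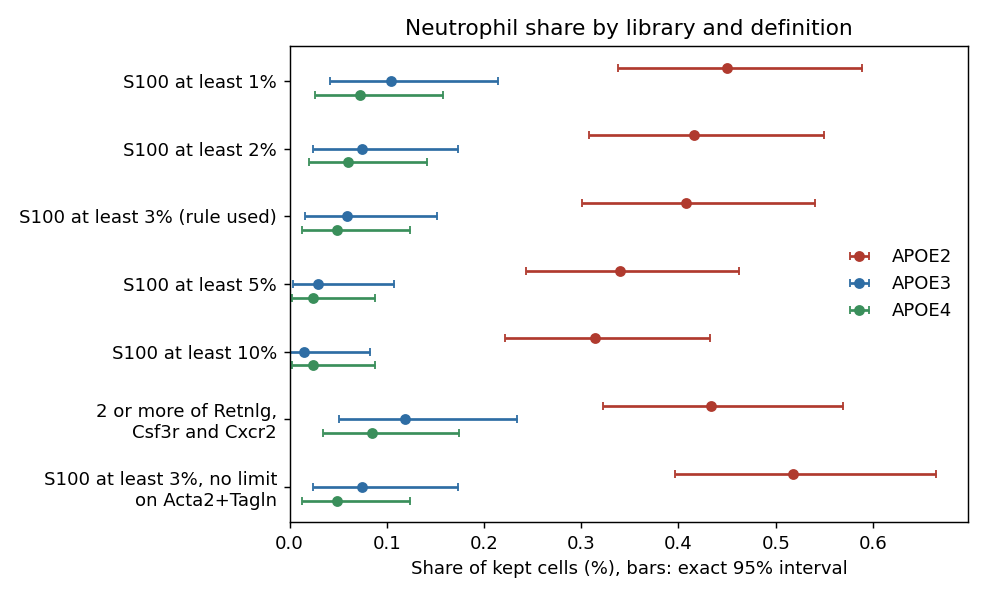
Share of kept cells counted as neutrophils (x axis, percent) in the APOE2, APOE3 and APOE4 libraries under 7 definitions (y axis), with exact Clopper-Pearson 95% intervals as bars, where S100 stands for the summed UMI share of S100a8 and S100a9. The APOE2 share lies between 0.314% and 0.518%, and its interval lies above those of APOE3 and APOE4 under each of the 7 definitions drawn.

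The minimum of 3% did not fall in a gap. A minimum of 2% gave 59 cells, with 5 each in APOE3 and APOE4. At a minimum of 5% there were 44 cells, with 2 each in APOE3 and APOE4. The neutrophils just inside the minimum of 3% had S100 shares of 3.03%, 3.13% and 3.28%, and the cells just outside had 2.59%, 2.10% and 2.05%. The limit on Acta2 and Tagln left out 14 cells that met the S100 minimum, 13 of APOE2 and 1 of APOE3, with Acta2 and Tagln at 1.32% and above, while the highest value inside was 0.833%. All 13 of these APOE2 cells held Retnlg UMIs and 6 held Csf3r UMIs. Without that limit the counts were 61, 5 and 4 cells.

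Other leukocytes and red cells differed between the libraries as well. Cells with UMIs of at least 3 of 6 macrophage markers (C1qa, C1qb, C1qc, Adgre1, Csf1r and Mrc1) and under 1% Acta2 and Tagln, called macrophage-marker cells below, were 3.49, 1.89 and 1.73% of the kept cells, and APOE2 was 0.89 above APOE3 on the log2 scale (0.60 to 1.19). Cells named by T lymphocyte markers (2 or more of Cd3d, Cd3e, Cd3g and Trac) were 0.748%, 0.193% and 0.994%, and those named by B lymphocyte markers were 0.229%, 0.119% and 3.06%. Among these 4 kinds of leukocyte together, neutrophils were 8.36% of the 574 cells in APOE2, 2.63% of the 152 in APOE3, and 0.832% of the 481 in APOE4. Cells with at least 10% haemoglobin UMIs were 0.900%, 0.119% and 0.558%, with log2 ratios over APOE3 of 2.92 (1.89 to 4.17) in APOE2 and 2.23 (1.13 to 3.53) in APOE4. The same log2 ratios of the neutrophil share were 2.78 (1.33 to 4.71) in APOE2 and -0.29 (-2.72 to 2.13) in APOE4. The part of retained blood in the neutrophil share was not tested.

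Transcripts of neutrophils also lay outside the counted cells. Levels are given as CPM, counts per 1000000 UMIs of the cells summed. Over all kept cells S100a8 stood at 152, 8.53 and 8.72 CPM. The neutrophils held 83.1% of the S100a8 and S100a9 UMIs in APOE2, only 31.0% in APOE3, and 95.3% in APOE4. Of the markers that the rule did not use, they held 89.7, 18.2 and 96.8% of the Retnlg UMIs. For Cxcr2 the values were 88.4, 20 and 20%, of 129, 10 and 15 UMIs. For Csf3r, which also had 207 UMIs in macrophage-marker cells, they were 51.2, 22.2 and 20.7%. In cells with 1% or more Acta2 and Tagln UMIs, called smooth muscle-marker cells below, S100a8 was at 29.7, 6.22 and 0.209 CPM. They include the 14 cells that met the S100 minimum but not the limit on Acta2 and Tagln, and without those 14 the level of S100a8 was 21.4, 1.01 and 0.209 CPM. In APOE3 a single cell of that kind, with 21823 UMIs, held 52.0% of the S100a8 and S100a9 UMIs of the library.

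S100a8 (ENSMUSG00000056054) lies on chromosome 3 from 90668978 to 90670035 and S100a9 (ENSMUSG00000056071) from 90692632 to 90695721 on the same chromosome (GRCm38). Retnlg lies on chromosome 16 from 48872621 to 48874496, Csf3r on chromosome 4 from 126024550 to 126044440, Cxcr2 on chromosome 1 from 74153989 to 74161246 and Ly6g on chromosome 15 from 75155240 to 75159126. The summed S100 share of a cell ran from 3.03 to 35.6% in APOE2 with a median of 16.2%. The 4 cells of APOE3 had 4.52, 4.84, 6.06 and 12.1%, and those of APOE4 had 3.46, 3.90, 21.6 and 23.1%. All APOE3 and APOE4 values fell within the APOE2 range.

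Markers that the rule did not use checked the label. Retnlg, which encodes a resistin-like secreted protein of myeloid cells, had UMIs in 54 of the 56 cells. Csf3r, the receptor for granulocyte colony-stimulating factor, had UMIs in 51 cells, Cxcr2, the main receptor for neutrophil-attracting CXC chemokines, in 42 and the surface marker Ly6g in 35. All 3 of Retnlg, Csf3r and Cxcr2 were found in 40 cells, at least 2 in 51, and none in 0 cells. After each cell was thinned to 500 UMIs, Retnlg was still seen in 87.5% of neutrophils (75.9 to 94.8%) against 0.0667% of 3000 smooth muscle-marker cells thinned likewise (unthinned, 96.4 against 0.367%). Csf3r, Cxcr2 and Ly6g fell to 25% of neutrophils each (14.4 to 38.4%), from 91.1, 75.0 and 62.5% unthinned, and had no UMI in the thinned smooth muscle-marker cells. The median neutrophil held 5416.5, 2900.5 and 3636 UMIs, below the medians of 12047, 17618 and 13521.5 over all kept cells of those libraries.

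Summed over the neutrophils of a library, Retnlg was at 33399, 5693 and 18230 CPM. In single cells it ran from 0 to 8.19% of UMIs in APOE2, with a median of 3.0%. The APOE3 cells lay between 0.340 and 0.755%, and 3 of the APOE4 cells between 0.410 and 0.803% with the other at 5.74%. The APOE3 and APOE4 cells were thus in the lower part of the APOE2 range, apart from 1 APOE4 cell. No ratio of gene levels between genotypes was formed, because 2 of the libraries rest on 4 cells each.

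**Figure D2:**
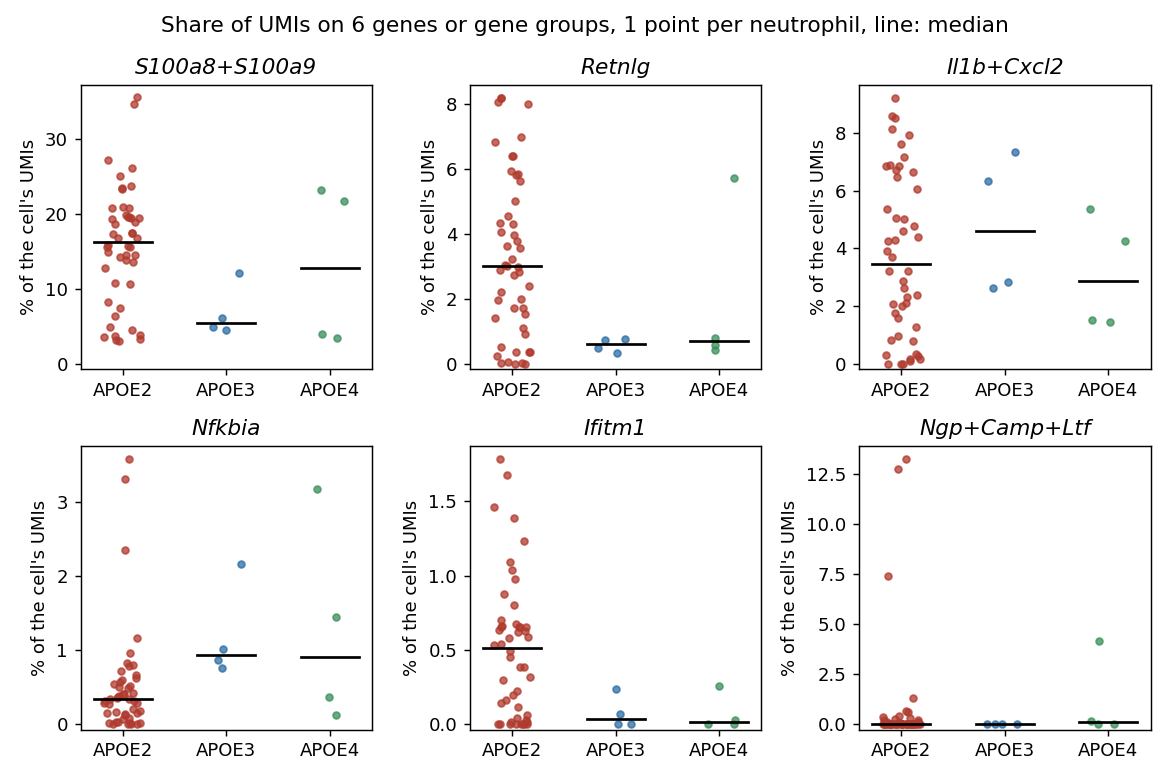
Share of each neutrophil's UMIs (y axis, percent) on S100a8 and S100a9, Retnlg, Il1b and Cxcl2, Nfkbia, Ifitm1, and Ngp, Camp and Ltf, with 1 point per cell, libraries on the x axis and a line at the median. The 48 APOE2 cells span the APOE3 and APOE4 values in each panel, and the S100 share reaches 35.6% in APOE2, 12.1% in APOE3 and 23.1% in APOE4.

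Defining markers of several other cell types were at or near 0. Smooth muscle transcripts, Gsn and Pi16 of the fibroblast list and some monocyte transcripts were present. Summed over all 56 cells, no UMI was found of C1qb, C1qc, Mrc1 or Mertk, and C1qa had 1 UMI. The macrophage list of 10 genes reached 138, 181 and 302 CPM, led by Cd68, and 4 of its genes were at 0. The T lymphocyte list of 9 genes held 1 UMI in all, and 8 of the genes were at 0. All 6 platelet genes were at 0, as were the endothelial genes Cdh5, Tie1 and Vwf and the eosinophil genes Epx and Prg2. Monocyte transcripts split, since Ccr2 and Ace were at 0 while Ly6c2 was at 298 CPM and Treml4 at 222 CPM. Smooth muscle genes summed to 1176, 1536 and 1690 CPM, led by Acta2, and erythroid genes to 266, 0 and 60.4 CPM, led by Hbb-bs. Fibroblast genes summed to 608, 361 and 241 CPM. Over all 56 cells Gsn had 80 UMIs and Pi16 65, whereas Dcn had 9, Col1a1 3 and Pdgfra 0. Pi16 was at 215 CPM against 31.5 CPM in macrophage-marker cells. Erythroid genes reached 1.44% of the UMIs of 1 cell. Acta2 was at 516 CPM in the neutrophils against 422 CPM in the macrophage-marker cells, although the rules for both sets of cells had limited it. The part of free RNA in these levels was not tested.

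Granule genes were compared next in the order in which the proteins are made. Of the azurophil genes, Mpo (myeloperoxidase), Elane (neutrophil elastase) and Ctsg (cathepsin G) had no UMI in any neutrophil, which allows up to 9.93 CPM each. Prtn3 (proteinase 3) had 9 UMIs and Ms4a3 6. The specific granule genes Ngp, Camp and Ltf were abundant but uneven. Ngp (neutrophilic granule protein) stood at 9565, 0 and 7908 CPM, Camp (cathelicidin) at 9146, 0 and 7183 CPM, and Ltf (lactoferrin) at 1366, 0 and 3924 CPM. All 3 were high in APOE2 and APOE4 and without a UMI in APOE3. A count of 0 in the APOE3 cells, which held 11066 UMIs in all, allows up to 271 CPM. These levels came from few cells, since Ngp had UMIs in 25 of 56 cells, Camp in 10 and Ltf in 5. The most Ngp-rich cell alone held 44.4% of the Ngp UMIs.

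Ngp, Camp and Ltf lie on chromosome 9, Camp from 109847379 to 109849617, Ngp from 110419747 to 110423012 and Ltf from 111019271 to 111042767. All 3 had UMIs together in 5 cells, although Ngp was found without the others in 16. The bases before their starts are shown on the gene strand (RefSeq, GRCm38.p6). Capitals mark any copy of TTGCNNAA, the letters of a C/EBP-type site, on either strand. The Ngp copy shown reads along the gene strand, and the Ltf copy reads along the opposite strand. Each stretch ends before the earlier of the RefSeq and GENCODE starts, Ngp at chr9:110419558-110419746 on the plus strand, Camp at chr9:109849618-109849706 on the minus strand and Ltf at chr9:111019042-111019270 on the plus strand.
Ngp: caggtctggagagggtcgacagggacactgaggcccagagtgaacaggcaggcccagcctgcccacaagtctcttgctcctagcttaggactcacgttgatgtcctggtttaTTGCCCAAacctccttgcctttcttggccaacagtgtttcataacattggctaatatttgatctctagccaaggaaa
Camp: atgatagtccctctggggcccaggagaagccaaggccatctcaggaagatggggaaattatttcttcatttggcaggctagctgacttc
Ltf: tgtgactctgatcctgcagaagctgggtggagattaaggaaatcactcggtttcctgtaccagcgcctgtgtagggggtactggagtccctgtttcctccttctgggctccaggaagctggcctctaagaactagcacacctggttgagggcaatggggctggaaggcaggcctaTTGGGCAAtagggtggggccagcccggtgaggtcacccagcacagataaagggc
In the full 250 bases before the RefSeq start, searched on both strands, these letters occurred 2 times for Ngp, 1 time for Ltf and 0 times for Camp. Of 32851 mouse promoters of that length, 9.56% held at least 1 copy and 0.572% at least 2. A match is a description of the letters and says nothing of binding.

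At a limit chosen after the values were seen, 5 neutrophils had 1% or more of their UMIs on Ngp, Camp and Ltf together, 4 in APOE2 and 1 in APOE4. Their shares were 1.33, 7.40, 12.8 and 13.3% in APOE2 and 4.19% in APOE4. Among the other 51 cells the highest share was 0.655%, and 30 cells had no UMI of these genes. These granule-rich cells held a median of 11365 UMIs against 4400 in the others. Without them Ngp was at 1020 CPM in APOE2 and 651 CPM in APOE4, Camp at 31.6 and 108 CPM, and Ltf at 0 in both. Ltf was thus found only in the granule-rich cells. Ngp had 232 UMIs in 20 of the other cells, or 959 CPM, which is above the 5.34 CPM that Ngp reached in the smooth muscle-marker cells of APOE2.

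The granule-rich cells held fewer cytokine transcripts than the others, at 6152 against 48016 CPM for the list of 10 genes. The gelatinase granule list (4842 against 5226 CPM) and the glycolytic list (3084 against 3456 CPM) were closer. Il1b was at 82.9 CPM in them against 12180 CPM in the other neutrophils, Cxcl2 at 3333 against 29759 CPM and Csf3r at 116 against 980 CPM. Chil3, which encodes a chitinase-like protein of immature myeloid cells, was at 5157 against 339 CPM, Cd177 at 945 against 103 CPM, and Cybb, the catalytic subunit of the NADPH oxidase, at 1227 against 37.2 CPM. The 6 cell cycle genes summed to 945 CPM against 49.6 CPM. Among them were 5 UMIs of Mki67 and 6 of Top2a, both genes of dividing cells, in 1 APOE2 cell of 21523 UMIs. The 2 cells with the highest granule shares had Retnlg at 0.0205 and 0.0418% of UMIs and no Csf3r or Cxcr2 UMI, but 12 and 11 Ly6g UMIs. Mmp8, which encodes neutrophil collagenase, was at 1028 CPM in the granule-rich cells and 1050 CPM in the others. That level hides a split, since the 2 cells with the highest granule shares had 0 and 1 Mmp8 UMI and the other 3 had 16, 26 and 19. The macrophage list held 0 UMIs in the granule-rich cells, and the Scrublet score of a doublet was among the top 5% of its library in 1 of the 56 neutrophils. With 5 cells, and 2 of them holding most of the granule UMIs, this split is a description.

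**Figure D3:**
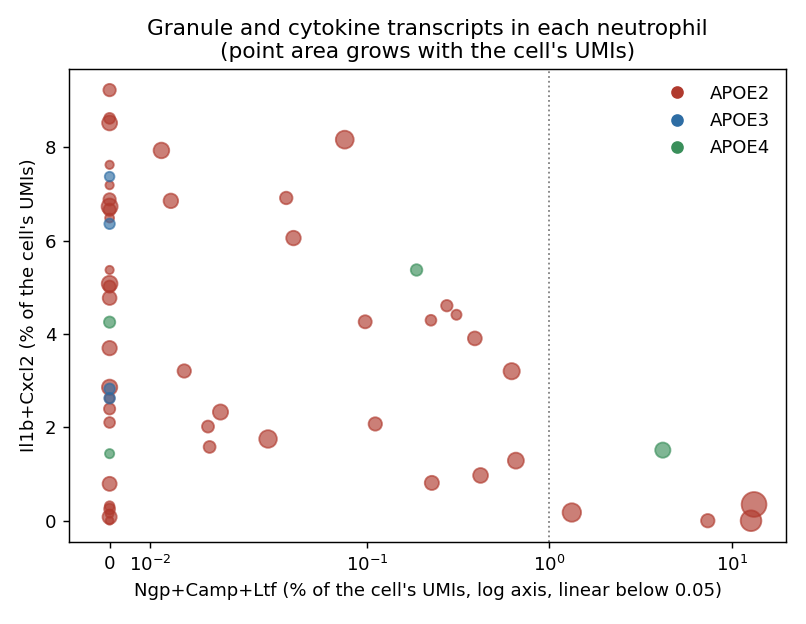
Share of UMIs on Ngp, Camp and Ltf (x axis, percent, log axis that is linear below 0.05) against the share on Il1b and Cxcl2 (y axis, percent) in each of the 56 neutrophils, colored by library, with a larger point for a cell with more UMIs and a dotted line at 1%. The 5 cells right of the line have between 0 and 1.51% Il1b and Cxcl2, whereas cells left of it reach 9.22%.

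On the list named for gelatinase granules, which also holds Mmp9 and Hp, Mmp8 stood at 1027, 90.4 and 1992 CPM. It had UMIs in 37 of 48, 1 of 4 and 2 of 4 cells. Mmp9, or gelatinase B, stood at 739, 994 and 1690 CPM and was found in 44 of the 56 cells. Lcn2, a specific granule gene that encodes the iron-siderophore binding protein lipocalin 2, was spread more widely than Ngp, Camp and Ltf. It stood at 8221, 723 and 1811 CPM, with UMIs in 45, 2 and 4 cells. Without the granule-rich cells Lcn2 was at 5668 CPM in APOE2 and 651 CPM in APOE4. Lcn2 was not particular to these cells in APOE2, where the neutrophils held only 9.41% of its UMIs and the smooth muscle-marker cells stood at 88.1 CPM, against 0.525 CPM in APOE3 and 0.0455 CPM in APOE4. Hp, the gene of haptoglobin, was at 2280, 1084 and 1207 CPM, in 54 of 56 cells.

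Cytokine genes were led by Cxcl2, a chemokine that attracts neutrophils, and Il1b, which encodes interleukin-1 beta. Cxcl2 stood at 24086, 32894 and 25474 CPM. Il1b stood at 9969 CPM in APOE2 (9599 to 10349), 13194 CPM in APOE3 (11140 to 15516) and 4105 in APOE4 (3188 to 5204). As the mean of each cell's CPM Il1b was at 11285, 14371 and 5966. Together they were 1% or more of the UMIs in 44 of 56 cells, which are 36 in APOE2 and all 8 in the other libraries. Their joint share ran from 0 to 9.22% in APOE2 with a median of 3.45%, from 2.62 to 7.37% in APOE3 and from 1.44 to 5.37% in APOE4, so the ranges overlapped. At 500 UMIs per cell, Il1b was seen in 83.9% of neutrophils (71.7 to 92.4%) and in 0 of 3000 smooth muscle-marker cells, and Cxcl2 in 83.9% against 0.467% (unthinned, 87.5 against 0.533% for Il1b and 94.6 against 4.17% for Cxcl2). Nlrp3, the inflammasome sensor that leads to cleavage of the interleukin-1 beta precursor, was at 1748, 4518 and 1328 CPM and in 48 of 56 cells. Ccl3 and Ccl4, chemokines that attract other leukocytes, had UMIs in 19 and 23 of the 56 cells. At 500 UMIs per cell Ccl4 was seen in 25% of neutrophils against 0.333% of smooth muscle-marker cells (unthinned, 41.1 against 3.13%).

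Nfkbia, which encodes the NF-kB inhibitor that NF-kB itself induces, stood at 3999, 12200 and 8210 CPM. As the mean of each cell's CPM the values were 5211, 12011 and 12804, so the order of APOE3 and APOE4 rests on how cells are weighted. Its share in single cells ran from 0 to 3.58% in APOE2 with a median of 0.342%, and was 0.755, 0.863, 1.02 and 2.17% in the APOE3 cells. The APOE4 cells had 0.123, 0.374, 1.45 and 3.18%. All 4 APOE3 cells were above the APOE2 median, and all lay within the APOE2 range. Tnfaip2 stood at 295, 3434 and 1087 CPM, on 81, 38 and 18 UMIs. Nfkbia is widely expressed, and 15.1% of smooth muscle-marker cells had a UMI at 500 UMIs per cell, against 69.6% of neutrophils (unthinned, 82.1 against 94.6%).

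Interferon-inducible transcripts were uneven, and the list of 13 genes summed to 9896, 5151 and 2233 CPM. Ifit1, Ifit2, Ifit3 and Ifi47 had at most 1 UMI each in the 56 cells, and Isg15 was at 149 CPM. The Ifitm genes, whose products restrict virus entry, made up most of the sum. Ifitm3 was at 1694, 361 and 664 CPM and in 50 of 56 cells. Ifitm1 stood at 5023, 813 and 362 CPM, and its relative Ifitm2 was at 2473, 2440 and 785 CPM. Ifitm1 had UMIs in 40 of 48, 2 of 4 and 2 of 4 cells, with medians of 0.511, 0.0332 and 0.0134% of UMIs. The 4 cells of APOE3 and the 4 of APOE4 were at or under 0.256%, and 8 APOE2 cells had none. Against the macrophage-marker cells, 4 of the 6 interferon-inducible genes with a mean of at least 50 CPM were at a log2 ratio of 1 or more and 0 at -1 or less, beside 20.4% and 39.6% of all genes so measured. Slfn4 (log2 ratio 8.82, 7.42 to 10.72) and Ifitm2 (1.57, 1.46 to 1.68) were among the higher. Below that mean, Ifit1 was lower in neutrophils (-4.11, -9.42 to -1.62), and so was Ifit2, at 0 against 68.0 CPM, at least 6.85 times. Wfdc17 followed the order of libraries seen for Ifitm1, at 6756, 2078 and 483 CPM.

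Receptors for chemoattractants and growth factors covered the classical set. Cxcr2 stood at 415, 181 and 181 CPM, on 114, 2 and 3 UMIs. Csf3r stood at 779, 1627 and 724 CPM. Fpr1, a receptor for formylated bacterial peptides, was at 605, 90.4 and 1207 CPM, and Il1r2, the decoy receptor of interleukin-1, at 597, 1175 and 905 CPM. Cxcr4, the marrow retention receptor that rises on aged neutrophils, was low at 52.9 CPM over all cells, with a UMI in 13 of 56. Siglecf, a marker of some tissue neutrophils and of eosinophils, had 2 UMIs in 2 cells. Both belong to a list of 8 genes named for aged or tissue neutrophils, whose members divided. Against macrophage-marker cells 5 were measured, with 2 at a log2 ratio of 1 or more and 2 at -1 or less. The higher were Icam1 (1.48) and Cd274 (2.74), the lower Cd63 (-2.04) and Ninj1 (-1.84). The shares over all measured genes were 20.4% and 39.6%.

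Adhesion genes had UMIs in between 49 of the 56 cells, for Cd44, and 5 cells, for Pecam1. Itgam and Itgb2, which encode the chains of the integrin Mac-1, were found in 38 cells each, and Selplg, the gene of a selectin ligand, in 41. These genes, like Hp and Ifitm3, were not compared with smooth muscle-marker cells at equal depth. The part of free RNA in these counts was not tested. Pecam1 was at 14.6, 0 and 1690 CPM, and 1 APOE4 cell held all 28 UMIs of that library. That cell is the granule-rich cell of APOE4, and the other endothelial genes had no UMI in any neutrophil.

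A comparison with the 681 macrophage-marker cells of the same libraries places these levels. It is a description without a test, since the S100 rule chose 1 side and macrophage markers the other. Among 2764 genes with a mean of at least 50 CPM, 20.4% were at a log2 ratio of 1 or more in neutrophils and 39.6% at -1 or less, with a median over all genes of -0.55. A gene could reach that mean through one set of cells alone, so the counts for lists also depend on this minimum. Of the neutrophil identity list 19 of 19 measured genes were at 1 or more (median 9.71, or 9.22 with genes at 0 set to their bound), which the choice of cells fixed in part. The macrophage list, in which 10 of 10 genes were at -1 or less, and the monocyte list hold genes that chose the macrophage-marker cells. Of 14 receptor genes 10 were at 1 or more and 0 at -1 or less (median 2.61), of 10 adhesion genes 9 and 0 (2.36), and of 13 pattern recognition and Fc receptor genes 7 and 1 (1.59). The receptor list shares Cxcr2, Csf3r and Il1r2 with the identity list, and the pattern recognition list shares Clec4d, Clec4e and Trem1.

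Cytokine genes divided in this comparison. Il1b was at 9765 CPM in neutrophils against 338 CPM in macrophage-marker cells, a log2 ratio of 4.85 (4.77 to 4.94), and Cxcl2 at 24485 against 8722 CPM (1.49, 1.45 to 1.52). Ccl4 went the other way at 2393 against 6755 CPM (-1.50, -1.61 to -1.39), as did Ccl3 at 748 against 1691 CPM (-1.18, -1.37 to -0.99), and Tnf was at 513 against 704 CPM (-0.46, -0.70 to -0.22). Within libraries the log2 ratio of Il1b was 4.77, 6.12 and 3.52, that of Cxcl2 1.57, 2.27 and 1.06, and that of Ccl4 -1.30, -5.68 and -2.42. Each kept its direction in every library, although Ccl4 had UMIs in only 1 of 4 cells in APOE3 and 1 of 4 in APOE4. Of 9 measured cytokine genes 5 were at 1 or more and 2 at -1 or less, beside 20.4% and 39.6% of all measured genes. NADPH oxidase subunits were also unequal. The cytosolic subunits Ncf4 (log2 ratio 1.88, 1.57 to 2.17), Ncf1 (1.23, 0.88 to 1.56) and the GTPase Rac2 (2.49, 2.29 to 2.69) were higher in neutrophils, the membrane subunit Cybb was lower (-1.32, -1.66 to -1.01) and its partner Cyba was level (0.04, -0.13 to 0.20). The ratio of Cybb joins unlike cells, since it was at 1227 CPM in the 5 granule-rich cells and 37.2 CPM in the other 51, against 688 CPM in macrophage-marker cells.

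Most lipid-handling genes stood lower in neutrophils. Of 9 measured genes 0 were at 1 or more and 8 at -1 or less (median -2.85), beside 20.4% and 39.6% of all measured genes. Of the 8 lower genes, 7 were under 50 CPM in neutrophils, so that they were measured through their level in macrophage-marker cells. The scavenger receptor gene Cd36 and the lipoprotein lipase gene Lpl had no UMI in neutrophils against 308 and 225 CPM in macrophage-marker cells, at least 31.0 and 22.7 times lower against the 3 UMIs that a count of 0 allows over all neutrophils. The cholesterol exporter Abca1 was at 62.9 against 348 CPM (-2.47, -3.20 to -1.82), although within APOE3 its log2 ratio was 0.84. Mouse Apoe, whose place the human gene holds in these mice, had 3 UMIs in neutrophils against 760 CPM in macrophage-marker cells. Reads of the human gene may align there only in part, so that this level is uncertain. Plin2, which coats lipid droplets, was the measured gene outside this pattern, at 678 against 737 CPM (-0.12, -0.33 to 0.08). Olr1, the gene of an oxidized LDL receptor, was too low to be among the 9 and went the other way, at 56.3 against 2.96 CPM (4.25, 3.19 to 5.31) on 17 UMIs in each set of cells. Plin2 levels were 732, 0 and 241 CPM by library. At 500 UMIs per cell, 30.4% of neutrophils had a Plin2 UMI against 1.83% of smooth muscle-marker cells (unthinned, 66.1 against 39.4%). Hilpda, another lipid droplet protein gene, was at 0 in the granule-rich cells and at 488 CPM in the other neutrophils.

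Glycolytic genes were higher than in macrophage-marker cells for 7 of 9 measured genes (median 1.32), beside 20.4% of all measured genes. Among the 7 were the glucose transporter gene Slc2a3 (4.62) and Pkm (1.37, 1.16 to 1.57). Immediate early and heat shock genes were lower for 8 of 14 and higher for 1 (median -1.80), beside 39.6% and 20.4% of all measured genes. Hspa1a was at 199 against 5057 CPM (-4.67, -5.06 to -4.31), Fos at 470 against 1773 CPM, and Ier3 was the gene that was higher. Of 7 measured trap and death genes 5 were at 1 or more and 2 at -1 or less (median 1.53), beside 20.4% and 39.6% overall. Among the higher were Mcl1, which keeps neutrophils alive, at 2211 against 766 CPM (1.53, 1.41 to 1.65), and the pro-apoptotic Bcl2l11 at 688 against 99.2 CPM (2.79, 2.56 to 3.03). The lower ones were Bcl2a1b (-1.62, -2.15 to -1.14) and Bcl2a1d (-2.88, -4.33 to -1.75), survival genes with near-identical copies that can share reads. Padi4, the histone-citrullinating enzyme of extracellular traps, was at 192 CPM in neutrophils and had 3 UMIs in all macrophage-marker cells. Alox5ap, which serves leukotriene synthesis, was at 2565 against 614 CPM (2.06, 1.95 to 2.17).

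**Figure D4:**
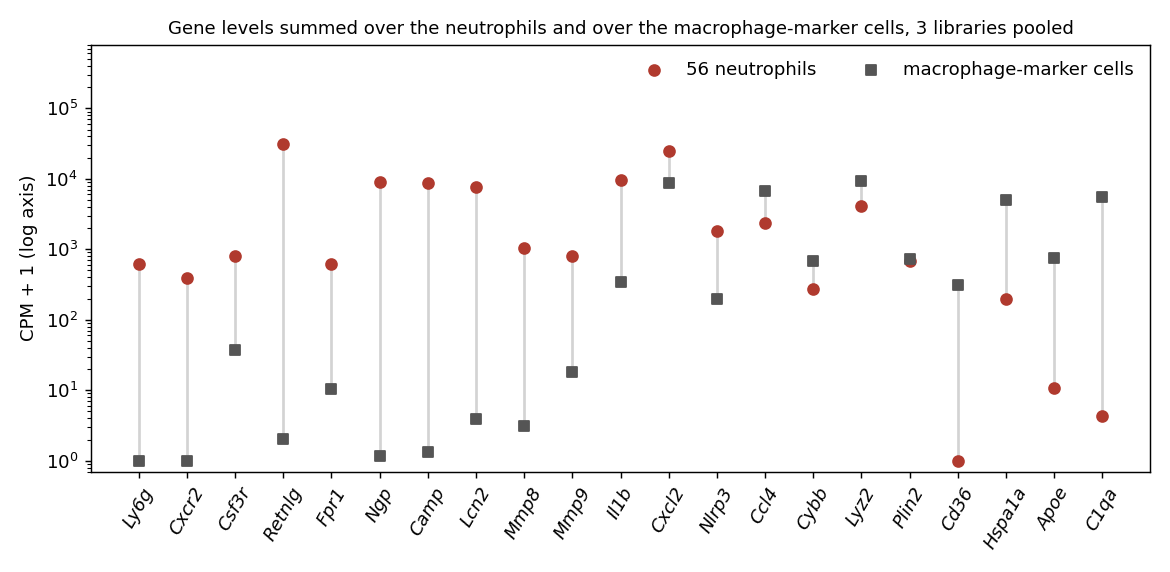
Levels of the genes named on the x axis in the 56 neutrophils (circles) and the 681 macrophage-marker cells (squares), as CPM plus 1 on a log axis, with the 3 libraries pooled. Cxcr2, Csf3r, Fpr1 and the granule genes other than Lyz2 lie higher in neutrophils, and Il1b is at 9765 against 338 CPM. Ccl4, Cybb, Lyz2, Cd36, Hspa1a, Apoe and C1qa lie higher in macrophage-marker cells.

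The genes with the largest ratio of neutrophils to all other kept cells were led by Stfa1, Il1f9 and Ly6g. Il1f9, which encodes interleukin-36 gamma, stood at 1526, 1988 and 2415 CPM and was found in 46 of the 56 cells. Asprv1, a protease gene, stood at 1468, 452 and 60.4 CPM and was found in 35 cells. Stfa1, a stefin gene with near-identical copies that can share reads, lay in 5 cells of APOE2, and Olfm4, a specific granule gene known to mark a subset of neutrophils, in 3, of which 1 held 73.6% of its UMIs. The genes with the highest level besides S100a8, S100a9, Retnlg and Cxcl2 were Malat1, Fth1, Tmsb4x, Il1b and Actb, and of these Malat1 (21493 against 22306 CPM) and Tmsb4x (11983 against 12522 CPM) were close to their level in macrophage-marker cells.

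Among the 51 neutrophils that were not granule-rich, the shares of Retnlg and Mmp8 moved together, with a Spearman rho of 0.79, and Retnlg also ran with Lcn2 (0.72) and Ly6g (0.71) and against Nfkbia (-0.53). Shares were taken over UMIs without S100a8 and S100a9, whose summed share chose the cells. Il1b ran with Cxcl2 (0.52) and against Mmp8 (-0.43). Within the 44 such cells of APOE2 the values were 0.76, 0.72, 0.69, -0.40, 0.60 and -0.53 in the same order. The cells share libraries and differ in depth, so these values describe the cells and carry no p.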

How the data were processed

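The authors processed the reads with Cell Ranger (version 7.0.1, per the submitters' processing notes) against mm10 and deposited raw UMI counts of 32285 genes per barcode. No other unit was used. Of 12288, 7247 and 8971 barcodes, 26757 passed the limits of 200 genes and 20% mitochondrial UMIs, with 168310501, 125105151 and 124926887 UMIs in APOE2, APOE3 and APOE4. GENCODE M21 gave coordinates for 32158 gene identifiers.

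UMIs were summed over cells and divided by the sum (CPM), with exact Poisson or conditional binomial 95% intervals. List medians and ratios within libraries had 0.5 UMIs added to each count. Doublets were kept. The automatic Scrublet call (scanpy 1.11.5) marked under 0.5% of cells, so the top 5% of scores per library was removed in an alternative. Between 14 and 27 kept barcodes recur in a pair of libraries, none of them a neutrophil in both, and 1 APOE2 neutrophil shares its barcode with a kept APOE4 cell. On simulated counts for neutrophils against macrophage-marker cells, 96.5% of 2764 genes had the true ratio in the interval and all 200 genes changed 4 times had the right direction. The counts were drawn from the Poisson model that the intervals assume. The simulation therefore checks the calculation only and says nothing of the spread among cells.

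Members and the 30 gene lists were chosen with earlier results of these data known. Genes were named from the lists, or as the 15 with the highest level (mitochondrial and ribosomal genes left out) or the 15 with the largest ratio to other kept cells. Hilpda, Wfdc17 and the granule-rich cells were chosen after their values were seen. Genes with near-identical copies (Stfa1, Stfa2l1, Mrgpra2a, Mrgpra2b, Bcl2a1b and Bcl2a1d) can share reads, and their levels are uncertain. Calculations used Python 3.11.15, numpy 2.4.6, scipy 1.17.1 and pandas 2.3.3.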

Additional observations from a re-analysis of the deposited data

How the results depend on the processing

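Under 12 alternative definitions or filters the count ranged from 40 to 70 cells and the APOE2 share stayed the highest, with log2 ratios of 1.87 to 4.4 over APOE3 and 2.35 to 3.81 over APOE4, all with intervals above 0. Of 84 alternative values of counts, shares and share ratios, 83 stayed within the counting interval or 1.5 times of the reported one. The exception was the APOE3 share at an S100 minimum of 10%, which was 0.0148% (1 cell) instead of 0.0594%, since fewer cells meet that minimum. The intervals of APOE3 and APOE4 rest on 4 cells each and are wide. Counts of 8 and 7 cells by the other markers fell within them, as did APOE2 to APOE3 ratios from 3.65 to 21.2 times within theirs. The tally of 83 therefore cannot show that the values are stable. The log2 ratio of APOE4 to APOE3 ran from -0.61 to 0.71, each with an interval across 0. Gene levels taken as the mean of each cell's CPM moved beyond their intervals in 13 of 36 cases, most in granule genes (Camp in APOE2 3366 instead of 9146 CPM). Gene ratios between genotypes under other settings were not run, because no pair of libraries had 20 neutrophils each. No paired analysis was possible because each genotype has 1 library. The values without granule-rich cells, and those of S100a8 without the 14 left-out cells, were added after seeing the data.

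The APOE3 and APOE4 neutrophils hold 11066 and 16566 UMIs, so a gene at 0 there is limited only to 271 and 181 CPM.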
